A study of Mus musculus with 12 samples.

Results

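The genes described here carry cholesterol through the cell: 29 genes that regulate its synthesis, make it, release it from lysosomes, move it, store it or export it. They were chosen by symbol and matched through Ensembl identifiers, and all 29 were found among the 49585 genes counted in each library. RNA of whole mouse pancreas was sequenced in 12 libraries, 1 per animal, from mice aged 2 to 4 months. The animals were C57Bl6 controls, called wild type, or a congenic line given as Atf3-/-, with both copies of Atf3, the gene of a stress-induced transcription factor, recorded as lost. Each animal had 4 injections over 4 h of saline or of cerulein at 50 ug/kg, and the pancreas was taken at 4 h. Cerulein is a cholecystokinin analogue that overstimulates the enzyme-secreting acinar cells and brings on acute pancreatitis. The 4 groups hold 3 libraries each, named by the codes of the labels: W1, K5 and R3 (wild type, saline), O1, O3 and N3 (wild type, cerulein), S1, K4 and Q1 (Atf3-/-, saline), and C2, C3 and L4 (Atf3-/-, cerulein). The labels give no sex, litter or batch, and do not say which part of Atf3 was deleted.

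Cells make cholesterol from acetyl-CoA through mevalonate, isoprenoids, squalene and lanosterol, in enzymes of the cytosol and the endoplasmic reticulum. The transcription factors SREBP-1 and SREBP-2, held in the endoplasmic reticulum by SCAP and INSIG proteins while sterol is plentiful, move to the Golgi and are cut free when sterol is scarce. They then switch on the enzymes of the pathway and receptors that take up lipoproteins. Cholesterol taken up in lipoproteins leaves the lysosome through NPC2 and NPC1. The nuclear receptor LXR answers to oxysterols, oxidised forms of cholesterol, and switches on exporters such as ABCA1 and ABCG1. In acinar cells sterols and lipids supply the membranes of the secretory pathway.

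The promoters of 3 synthesis genes whose RNA rose in wild type are shown first, since the motif through which SREBP acts, the sterol regulatory element, lies in this kind of window. They come from RefSeq on GRCm38.p6, run from 250 bases before to 50 bases after the start, and read 5′ to 3′ on the strand of the gene. Capitals mark a sterol regulatory element spelled TCACNCCAC and each CCAAT box, or ATTGG where the box lies on the other strand. The windows are Hmgcs1 at chr13:119690101-119690400 (plus strand), Msmo1 at chr8:64733529-64733828 (minus strand) and Cyp51 at chr5:4104648-4104947 (minus strand).
Hmgcs1: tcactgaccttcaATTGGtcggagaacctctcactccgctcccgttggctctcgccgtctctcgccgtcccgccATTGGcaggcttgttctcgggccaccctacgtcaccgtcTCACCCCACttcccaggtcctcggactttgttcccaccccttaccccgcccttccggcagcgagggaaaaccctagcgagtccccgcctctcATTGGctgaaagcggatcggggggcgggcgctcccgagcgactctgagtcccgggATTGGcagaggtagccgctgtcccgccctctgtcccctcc
Msmo1: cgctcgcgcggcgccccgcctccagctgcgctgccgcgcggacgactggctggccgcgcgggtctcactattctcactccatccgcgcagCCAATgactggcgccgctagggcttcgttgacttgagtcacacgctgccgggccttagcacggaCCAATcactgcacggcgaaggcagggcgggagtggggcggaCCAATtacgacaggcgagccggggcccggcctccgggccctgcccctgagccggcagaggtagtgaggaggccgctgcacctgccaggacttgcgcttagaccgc
Cyp51: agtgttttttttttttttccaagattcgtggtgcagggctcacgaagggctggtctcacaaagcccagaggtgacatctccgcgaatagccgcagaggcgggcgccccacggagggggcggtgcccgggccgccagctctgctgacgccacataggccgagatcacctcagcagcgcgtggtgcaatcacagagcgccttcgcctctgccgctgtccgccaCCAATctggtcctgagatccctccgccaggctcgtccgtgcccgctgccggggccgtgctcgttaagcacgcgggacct
Hmgcs1 held the only sterol regulatory element of this spelling among the 31 promoters of the 23 members in the table, beginning 137 bases before the start, and its promoter also held 4 CCAAT boxes. Msmo1 held 3 CCAAT boxes and Cyp51 held 1. Of the 32851 RefSeq mouse promoters of this length, 1.24% held TCACNCCAC on either strand, against 1 of the 31 promoters of members. CCAAT was in 21 of the 31 and in 37.4% of all promoters. The GC box GGGCGG was in 26 of the 31 and in 35.7% of all. The E-box CACGTG was in 7 of the 31, from 6 of the 23 members, and in 7.15% of all. Some windows of the same member overlap, as for Scap, whose overlapping windows each held the E-box. The cyclic AMP element TGACGTCA, a spelling that ATF family factors can bind, was in 0 of the 31 and in 1.79% of all. Each motif was searched on both strands and counted whether or not it overlapped another, and a match describes the letters only. Fdps, Fdft1, Sqle, Npc1, Stard4 and Abcg1 are not in the table.

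The libraries held 18292997 to 32158629 counts. Levels are given as CPM, counts corrected for the depth of each library, and a call is an adjusted p under 0.05 over all genes tested. Atf3 itself did not fall in the line labelled as its knockout: its level was 1.13 to 5.28 CPM in wild-type saline and 394 to 775 CPM in wild-type cerulein, against 7.44 to 23.1 CPM in labelled knockout saline and 1375 CPM (C2), 20.7 CPM (C3) and 1636 CPM (L4) in labelled knockout cerulein. The line is therefore called labelled knockout. C3 lay near the saline libraries in Atf3 and in most members described below, against its cerulein label, so each result is given with C3 and without it. Acinar markers were present in all 12 libraries, with a summed level of 7 markers of 290400 to 435800 CPM in the 6 saline libraries and of 214000 to 268200 CPM in the cerulein libraries other than C3. The 5 duct markers summed to 27.3 to 34.5 CPM in saline, to 156 to 239 CPM in wild-type cerulein, and to 95.8 CPM in C2, 30.3 CPM in C3 and 121 CPM in L4. N3 (wild type, cerulein) and K4 (labelled knockout, saline) held the most of 7 adipocyte markers, 401.5 and 489.8 CPM, and L4 the most of 6 islet markers, 11020 CPM. In whole tissue, fewer cells of a type and less RNA per cell cannot be told apart. The part of these marker differences in the results below was not tested beyond the values given without the libraries concerned.

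In the saline-injected wild type the regulators were among the higher members. Per kilobase of exon, so that genes can be compared, Insig1 had the highest level in wild-type saline, 12.2 ± 4.56 CPM per kb (SD, n = 3). Npc2 followed at 5.07 ± 0.54, Scap at 4.49 ± 0.19 and Insig2 at 4.02 ± 0.73 CPM per kb. The mean ± SD ranges of Npc2 and Scap overlapped, as did those of Scap and Insig2, while that of Insig1 lay above them. The lowest were Idi1, the isomerase that readies isoprenoid units for joining, at 0.199 ± 0.036 CPM per kb, and Fdps, which makes farnesyl diphosphate, at 0.153 ± 0.069 CPM per kb, and their ranges overlapped. 9 of the 29 members averaged below 2 CPM, and the lowest count of any member in a library was 6. All 29 passed the filter on low counts and were tested.

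After cerulein the wild-type pancreas held more RNA for the SREBP transcription factors, for steps on both sides of squalene and for the lysosomal exporter Npc1, and less for a late sterol isomerase and the exporter Abcg1. In wild type 9 of the 29 members rose, 2 fell and 18 did not pass. Of all 14329 genes tested, 17.9% rose and 12.8% fell. The median log2 fold change was 0.26 over the members and 0.05 over all genes. An unadjusted p under 0.05 was reached by 16 members, 10 of them higher and 6 lower, and in 20 of 29 the 3 cerulein libraries all lay outside the range of the 3 saline libraries on one side. The share of all genes was counted neither for unadjusted p nor for libraries that lay apart, here and below. Such counts therefore describe the members only and do not set them apart from other genes. Without C3, which is in neither group but enters the estimate of the spread, 9 members rose and 4 fell, where 21.3% of 14733 genes rose and 16.6% fell.

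**Figure D1:**
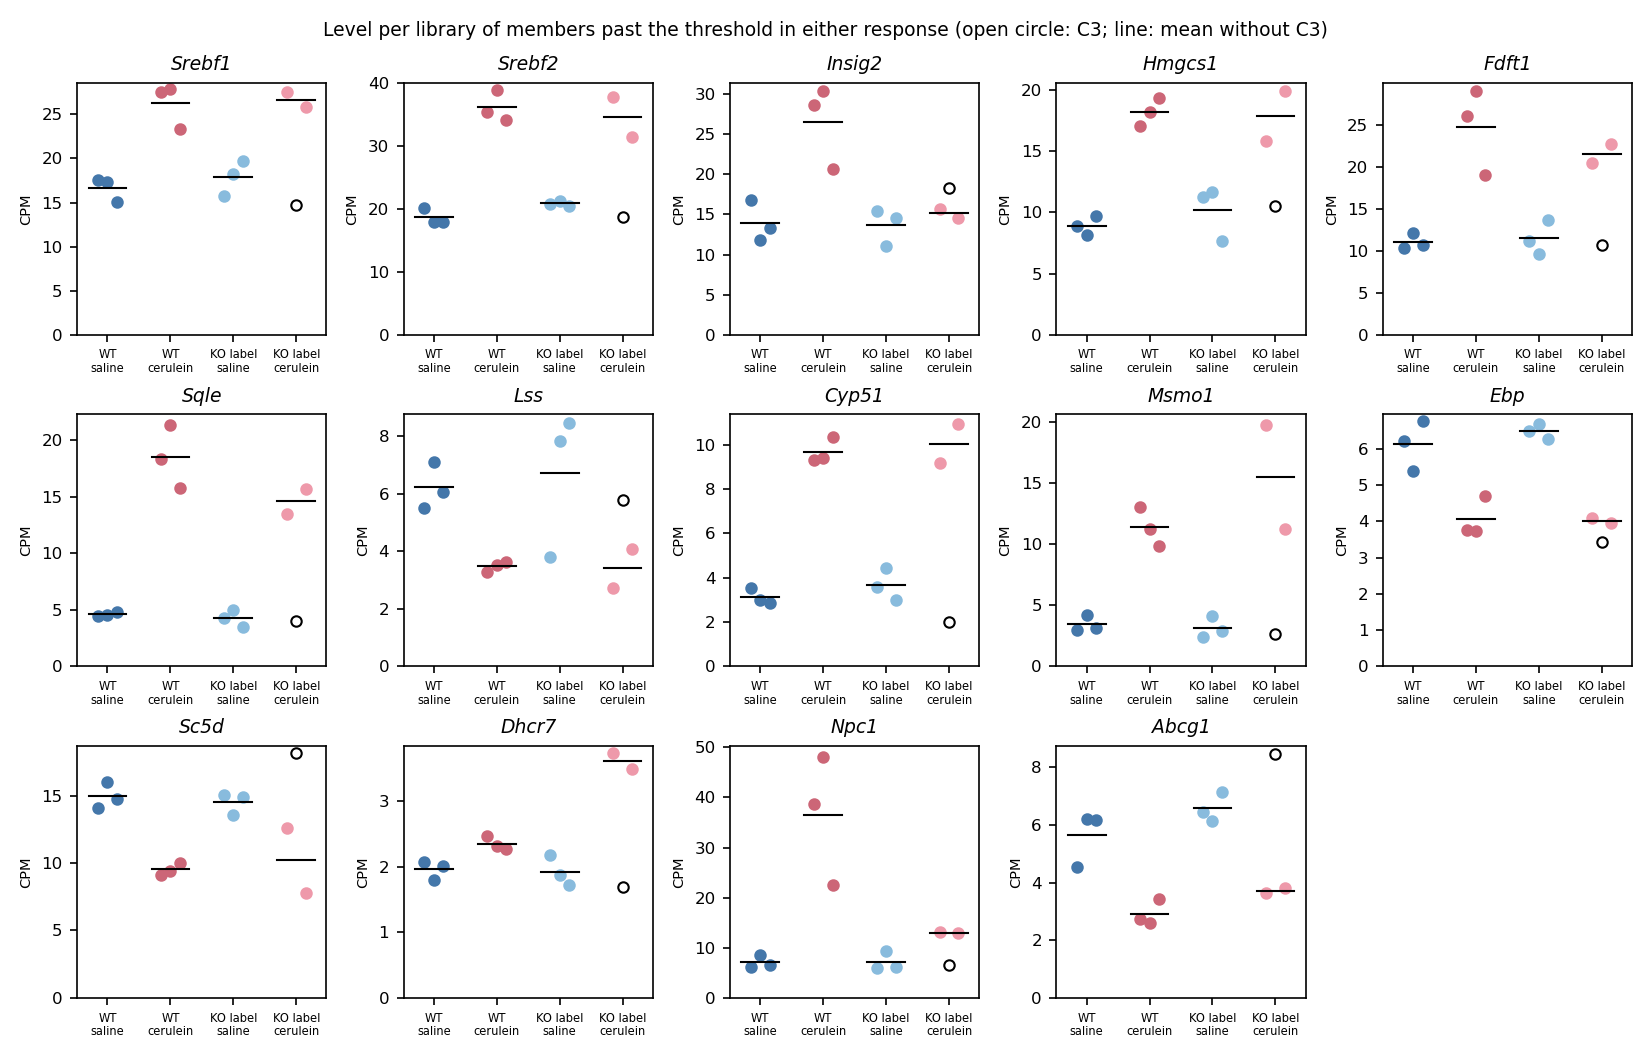
Level in CPM (vertical axes, linear, from 0) of the 14 members past the threshold in the wild-type or the labelled knockout response, with or without C3. Each point is a library, the open circle is C3 and the lines are group means without C3. Npc1 lies at 22.5 to 48.2 CPM in wild-type cerulein and at 12.9 and 13.1 CPM in L4 and C2.

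Among the regulators, 3 of 5 rose in wild type and none fell. Srebf2 encodes SREBP-2, the form that mainly drives cholesterol synthesis. It stood at 20.2 (W1), 18.03 (K5) and 17.96 CPM (R3) in saline and at 35.5 (O1), 39.0 (O3) and 34.2 CPM (N3) in cerulein. The groups did not overlap, and the log2 fold change was 0.95 ± 0.21 (SE, n = 3 per group, adjusted p = 0.0112). Srebf1, which encodes the SREBP-1 forms that act more on fatty acid genes, stood at 17.6 (W1), 17.4 (K5) and 15.1 CPM (R3) in saline and at 27.5 (O1), 27.9 (O3) and 23.3 CPM (N3) in cerulein. Its change was smaller, 0.65 ± 0.22 (adjusted p = 0.0407), and the call was lost when any of 8 single libraries was left out (W1, K5, R3, O1, O3, S1, K4 or Q1; adjusted p of 0.0523 to 0.132). Insig2, one of the INSIG proteins that hold SCAP back, was at 16.8 (W1), 11.8 (K5) and 13.4 CPM (R3) in saline and at 28.6 (O1), 30.4 (O3) and 20.6 CPM (N3) in cerulein, a change of 0.93 ± 0.20 (adjusted p = 0.0107). All 3 cerulein libraries were above all 3 saline libraries, with N3 the lowest of them.

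The remaining regulators did not pass. Insig1, the INSIG gene that is itself an SREBP target, had the opposite sign to Insig2: 26.8 (W1), 53.7 (K5) and 32.8 CPM (R3) in saline and 22.3 (O1), 24.4 (O3) and 30.0 CPM (N3) in cerulein. N3 lay inside the saline range, and the log2 fold change of -0.56 ± 0.25 had an adjusted p of 0.107. Scap, the escort of SREBP, changed by 0.24 ± 0.16 (adjusted p = 0.275).

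Of the 7 genes from acetyl-CoA to farnesyl diphosphate, 1 rose and none fell. Hmgcs1, the HMG-CoA synthase whose promoter held the sterol regulatory element, stood at 8.86 (W1), 8.17 (K5) and 9.73 CPM (R3) in saline and at 17.1 (O1), 18.2 (O3) and 19.3 CPM (N3) in cerulein, a log2 fold change of 1.03 ± 0.23 (adjusted p = 0.0114). The lowest cerulein library was well above the highest saline library. The next kinases and the decarboxylase did not move together: the change of Pmvk was 0.70 ± 0.38 (adjusted p = 0.178), that of Mvk -0.43 ± 0.29 (adjusted p = 0.285) and that of Mvd -0.54 ± 0.22 (adjusted p = 0.0847). Their libraries lay apart in each case, all higher for Pmvk and all lower for Mvk and Mvd, but at levels of 0.920 to 3.29 CPM. Idi1 (0.91 ± 0.57, adjusted p = 0.251) and Fdps (0.81 ± 0.35, adjusted p = 0.102) had higher values in all 3 cerulein libraries and missed the threshold. Acat2, the cytosolic enzyme that joins acetyl-CoA units, was at 0.09 ± 0.54 (adjusted p = 0.917), and 39.1% of the 50-base stretches of its exons also occur in other genes, among them its copy Acat3 (0 to 0.259 CPM). That share was 25.3% for Idi1, 26.2% for Fdps, 11.6% for Hmgcs1 and 26.5% for Fdft1, described below. Reads of Acat2 and of these genes could therefore have been split or dropped in counting.

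From squalene to cholesterol the 11 genes split: 4 rose, 1 fell and 6 did not pass in wild type. Sqle, squalene epoxidase and a rate-limiting step of the sterol branch, rose most. It stood at 4.46 (W1), 4.57 (K5) and 4.81 CPM (R3) in saline and at 18.3 (O1), 21.4 (O3) and 15.8 CPM (N3) in cerulein, 4.00-fold higher, with a log2 fold change of 2.00 ± 0.39 (adjusted p = 0.00918). The saline libraries lay close together, far below the cerulein libraries. Msmo1, which acts in the removal of methyl groups from the sterol ring, was at 2.98 (W1), 4.21 (K5) and 3.15 CPM (R3) in saline and at 13.1 (O1), 11.2 (O3) and 9.87 CPM (N3) in cerulein. Its change was 1.72 ± 0.54 (adjusted p = 0.0331), and it missed the threshold by limma-voom (adjusted p = 0.0655), with no filter on low counts (0.0523) and without W1, K5, R3, O1 or O3 (0.0708 to 0.101). Cyp51, the lanosterol demethylase, was at 3.56 (W1), 2.98 (K5) and 2.84 CPM (R3) in saline and at 9.28 (O1), 9.39 (O3) and 10.3 CPM (N3) in cerulein, a change of 1.63 ± 0.46 (adjusted p = 0.0239) that missed the threshold without the same 5 libraries (0.0559 to 0.0802). For Sqle, Msmo1 and Cyp51 alike, every wild-type cerulein library exceeded every wild-type saline library.

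Fdft1, squalene synthase, makes the first molecule of the sterol branch. It stood at 10.4 (W1), 12.2 (K5) and 10.7 CPM (R3) in saline and at 26.0 (O1), 29 (O3) and 19 CPM (N3) in cerulein, a log2 fold change of 1.15 ± 0.27 (adjusted p = 0.0121). Its exons share 774 bases with those of the protease gene Ctsb on the opposite strand. Ctsb is far more abundant, at 66.1 to 104 CPM in wild-type saline and 308 to 528 CPM in wild-type cerulein (log2 fold change 2.26 ± 0.62, adjusted p = 0.0212). The kit marks strand, but the strand setting of the counting is not known here, and the part of Ctsb reads in the Fdft1 change was not tested.

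Of the 11 genes 1 fell in wild type, and without C3 another 2 did. Ebp, the sterol isomerase, fell: it was at 6.21 (W1), 5.39 (K5) and 6.77 CPM (R3) in saline and at 3.76 (O1), 3.73 (O3) and 4.71 CPM (N3) in cerulein, a log2 fold change of -0.59 ± 0.17 (adjusted p = 0.0262). The call was lost without W1, R3, O1 or O3 (adjusted p of 0.0694 to 0.1003), with no filter on low counts (0.136) and in a fit of the wild-type groups alone (0.0544). Lss, lanosterol synthase, which closes the ring on the product of Sqle, was at 5.497 (W1), 7.09 (K5) and 6.07 CPM (R3) in saline and at 3.28 (O1), 3.53 (O3) and 3.61 CPM (N3) in cerulein. Its change of -0.84 ± 0.32 missed the threshold with C3 (adjusted p = 0.0700) and passed without it (0.0387). Sc5d, the sterol desaturase, was at 14.1 (W1), 16.0 (K5) and 14.8 CPM (R3) in saline and at 9.14 (O1), 9.44 (O3) and 9.98 CPM (N3) in cerulein, and its change of -0.65 ± 0.24 likewise had an adjusted p of 0.0626 with C3 and of 0.0107 without it. For each of these 3 genes all wild-type cerulein libraries were below all wild-type saline libraries.

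The other sterol enzymes did not pass in wild type. Dhcr7, the reductase of the last step, changed by 0.26 ± 0.29 (adjusted p = 0.520), Tm7sf2, a sterol reductase, by -0.07 ± 0.28 (0.864), Hsd17b7, a ketosteroid reductase, by -0.06 ± 0.44 (0.939) and Nsdhl, a sterol decarboxylase, by -0.49 ± 0.44 (0.429). Their levels were between 0.626 and 2.65 CPM in the 6 wild-type libraries.

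**Figure D2:**
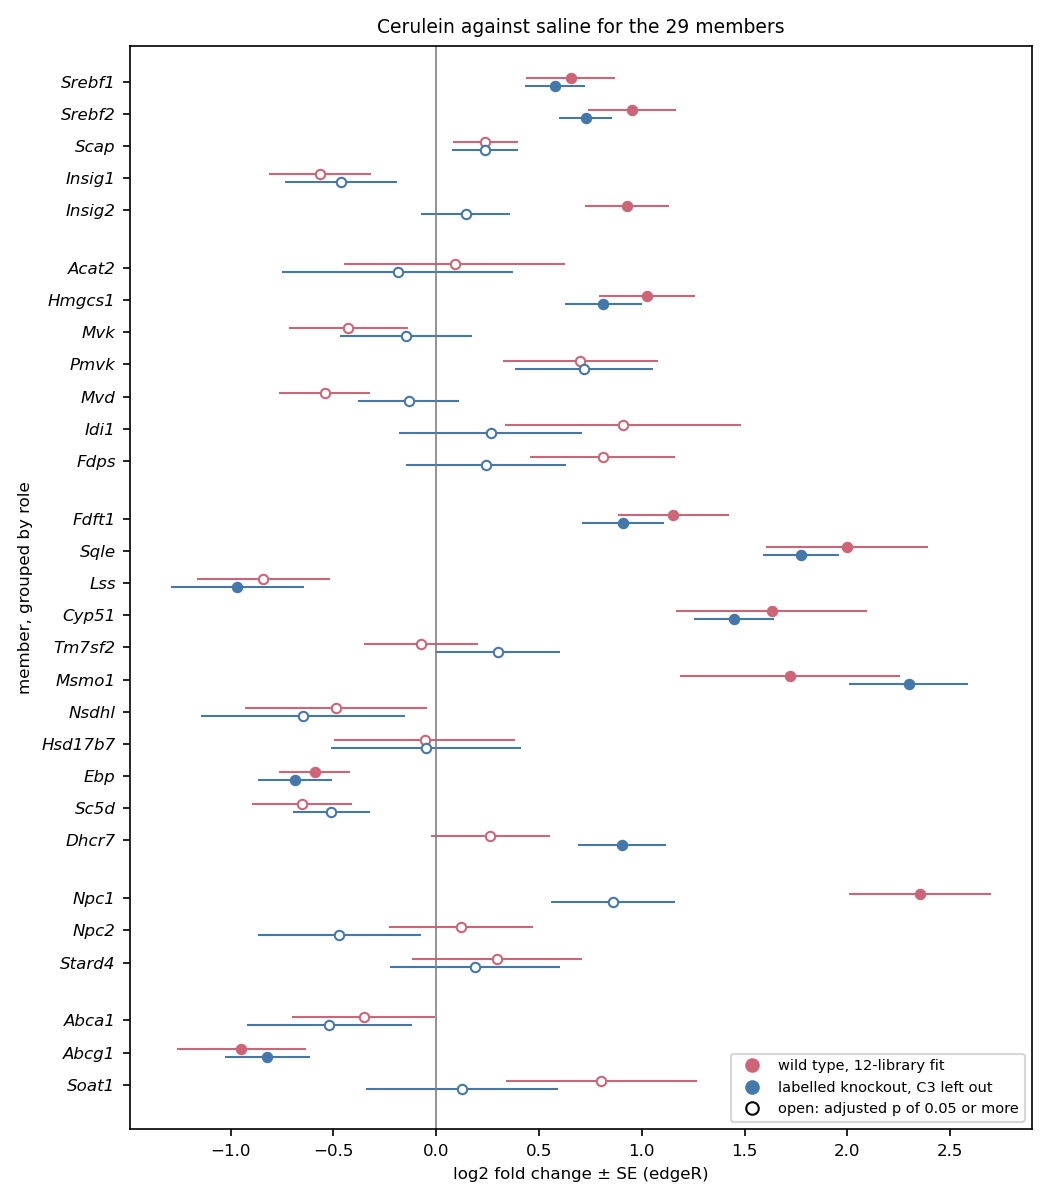
Log2 fold change of cerulein against saline (horizontal axis) for the 29 members, with bars of 1 SE, in wild type (red, fit of all 12 libraries) and in the labelled knockout (blue, C3 left out). Filled points passed an adjusted p of 0.05; Npc1 is at 2.35 in wild type and 0.86 in the labelled knockout, and Insig2 at 0.93 and 0.14.

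Npc1, the lysosomal membrane protein that hands taken-up cholesterol on to the rest of the cell, had the largest change of the 29 members in wild type. It stood at 6.14 (W1), 8.63 (K5) and 6.62 CPM (R3) in saline and at 38.7 (O1), 48.2 (O3) and 22.5 CPM (N3) in cerulein. All 3 cerulein libraries were above the saline libraries, with N3 the lowest of them. The log2 fold change was 2.35 ± 0.35, or 5.10-fold (adjusted p = 0.00918). Without N3 it was 2.61 ± 0.32. Exons of Npc1 share 511 bases with those of Rmc1 on the opposite strand, and Rmc1 was at 5.63 to 7.50 CPM in wild-type saline, overlapping Npc1, and at 9.14 to 12.5 CPM in wild-type cerulein, below it (log2 fold change 0.69 ± 0.23, adjusted p = 0.0423). Npc2, the soluble partner of NPC1, did not pass. It was at 30.7 (W1), 24.97 (K5) and 26.9 CPM (R3) in saline and at 23.6 (O1), 22.5 (O3) and 43.6 CPM (N3) in cerulein, a change of 0.12 ± 0.35 (adjusted p = 0.823). Stard4, a carrier of sterols through the cytosol, changed by 0.30 ± 0.41 (adjusted p = 0.619) at 1.07 to 2.19 CPM.

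Of the 3 genes for export and esterification, 1 fell. Abcg1, an exporter to lipoproteins and an LXR target, was at 4.53 (W1), 6.22 (K5) and 6.18 CPM (R3) in saline and at 2.73 (O1), 2.61 (O3) and 3.43 CPM (N3) in cerulein, a log2 fold change of -0.95 ± 0.31 (adjusted p = 0.0410). The groups did not overlap, but the call was lost without any 1 of 9 libraries (all but C2, C3 and L4; adjusted p of 0.0521 to 0.12) and with no filter on low counts (0.0837). Without C3 its adjusted p was 0.00242. Abca1, the exporter that loads apolipoprotein A-I, was at 18.3 (W1), 24.7 (K5) and 27.7 CPM (R3) in saline and at 14.0 (O1), 11.8 (O3) and 29.6 CPM (N3) in cerulein, a change of -0.35 ± 0.35 (adjusted p = 0.470). N3 alone of the cerulein libraries lay above the saline range, and with N3 left out its log2 change was -0.87 ± 0.28 (adjusted p = 0.0473), or -0.92 ± 0.22 when C3 and K4 were left out too (0.00832). Soat1, which esterifies cholesterol for storage, was highest in N3 too, at 10.1 CPM against 4.42 (O1) and 4.26 CPM (O3), with 3.04 to 4.53 CPM in saline, and its change of 0.80 ± 0.46 (adjusted p = 0.211) was 0.27 ± 0.45 without N3. In the saline libraries labelled knockout, Npc2, Abca1 and Soat1 were highest in K4, at 48.4, 33.0 and 6.46 CPM. N3 and K4 are the libraries with the most adipocyte, macrophage, neutrophil and lymphocyte marker RNA. Macrophage and monocyte markers (9 genes) summed to 577.5 CPM in N3 and 452 CPM in K4, against 130.7 to 217.2 CPM in wild-type saline, and the part of these cells in the 3 genes was not tested beyond the values without N3.

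C3 lay with the saline libraries for most of the members that changed. Of the 11 members called in wild type, C3 was inside the range of the 6 saline libraries for 6 and inside that of the other 5 cerulein libraries for 1, Insig2 (18.2 CPM). Sqle was at 4.03 CPM in C3 against 3.46 to 4.99 CPM in saline, and Npc1 at 6.47 against 5.94 to 9.31 CPM. Ebp was an exception, at 3.42 CPM in C3, below every other library.

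With C3 kept as labelled, 0 of the 29 members passed in the cerulein response of the labelled knockout by edgeR, where 0% of all genes rose and 0% fell. An unadjusted p under 0.05 was reached by 6 members with higher and 1 with lower values. By DESeq2 Sqle and Msmo1 rose and Ebp fell, and by limma-voom 0 members passed. The share of all genes called by DESeq2 or limma-voom in this response was not counted. Without C3, 8 members rose and 3 fell in the labelled knockout, 9 of the 11 called in wild type among them, where 18.7% of all genes rose and 10.5% fell. This rests on C2 and L4 alone in the cerulein arm.

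Without C3 the rise of the synthesis genes in the labelled knockout was led by Msmo1 and Sqle. Msmo1 was at 2.43 (S1), 4.14 (K4) and 2.86 CPM (Q1) with saline and at 19.8 (C2), 2.67 (C3) and 11.2 CPM (L4) in cerulein, a log2 fold change of 2.30 ± 0.29 without C3 (adjusted p = 0.000254) and of 1.84 ± 0.54 with it (0.094). Sqle was at 4.31 (S1), 4.99 (K4) and 3.46 CPM (Q1) with saline and at 13.5 (C2), 4.03 (C3) and 15.7 CPM (L4) in cerulein, a change of 1.77 ± 0.18 without C3 (adjusted p = 7.9e-05) and of 1.38 ± 0.39 with it (0.0895). Cyp51 was at 3.60 (S1), 4.45 (K4) and 2.98 CPM (Q1) with saline and at 9.18 (C2), 2.02 (C3) and 10.9 CPM (L4) in cerulein, a change of 1.45 ± 0.19 without C3 (adjusted p = 0.000365) and of 1.01 ± 0.46 with it (0.219). In each of the 3, C2 and L4 were above all saline libraries and C3 was not.

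Srebf1 and Srebf2 of the 5 regulators, Hmgcs1 of the 7 genes up to farnesyl diphosphate, and Fdft1 also rose without C3. Fdft1 was at 11.2 (S1), 9.67 (K4) and 13.7 CPM (Q1) with saline and at 20.4 (C2), 10.7 (C3) and 22.7 CPM (L4) in cerulein, a change of 0.91 ± 0.20 without C3 (adjusted p = 0.00634). Hmgcs1 was at 11.3 (S1), 11.7 (K4) and 7.63 CPM (Q1) with saline and at 15.9 (C2), 10.6 (C3) and 19.9 CPM (L4) in cerulein, a change of 0.81 ± 0.19 without C3 (adjusted p = 0.00857). For both genes C3 lay inside the saline range. With L4 left out along with C3, which leaves C2 alone in the cerulein arm, the change was 0.83 for Fdft1 and 0.64 for Hmgcs1. Srebf2 was at 20.9 (S1), 21.3 (K4) and 20.6 CPM (Q1) with saline and at 37.8 (C2), 18.7 (C3) and 31.5 CPM (L4) in cerulein, a change of 0.73 ± 0.13 without C3 (adjusted p = 0.002). Srebf1 was at 15.7 (S1), 18.3 (K4) and 19.7 CPM (Q1) with saline and at 27.5 (C2), 14.7 (C3) and 25.8 CPM (L4) in cerulein, a change of 0.58 ± 0.14 without C3 (adjusted p = 0.0126). Both SREBP genes thus rose in C2 and L4, while C3 was below every labelled knockout saline library. Dhcr7, which did not pass in wild type, was at 2.18 (S1), 1.87 (K4) and 1.73 CPM (Q1) with saline and at 3.74 (C2), 1.69 (C3) and 3.49 CPM (L4) in cerulein, a change of 0.90 ± 0.21 without C3 (adjusted p = 0.00932).

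The falls of the labelled knockout without C3 were those of Ebp, Abcg1 and Lss. Ebp was at 6.49 (S1), 6.68 (K4) and 6.26 CPM (Q1) with saline and at 4.08 (C2), 3.42 (C3) and 3.96 CPM (L4) in cerulein, a change of -0.69 ± 0.18 without C3 (adjusted p = 0.0158) and of -0.76 ± 0.17 with it (0.086). All 3 cerulein libraries, C3 included, were below all 3 saline libraries. Abcg1 was at 6.45 (S1), 6.15 (K4) and 7.15 CPM (Q1) with saline and at 3.63 (C2), 8.44 (C3) and 3.80 CPM (L4) in cerulein, a change of -0.82 ± 0.21 without C3 (adjusted p = 0.0132). Lss was at 3.81 (S1), 7.84 (K4) and 8.46 CPM (Q1) with saline and at 2.72 (C2), 5.77 (C3) and 4.09 CPM (L4) in cerulein, and here L4 was above S1. Its change was -0.97 ± 0.32 without C3 (adjusted p = 0.0448), and with C3 left out it missed the threshold by limma-voom (0.0791) and without N3 and K4 too (0.0971). Ebp missed it with C3 left out and no filter on low counts (0.0626). None of the 3 kept its call when L4 was left out along with C3, which leaves C2 as the only cerulein library, assumed to vary like the other groups.

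Without C3, 10 members were called in both responses. The share of all genes called in both was not counted, for this number or for the 9 of 11 above. Insig2, Npc1 and Sc5d were called in wild type and not in the labelled knockout, and Dhcr7 the other way round. The difference of the responses was tested directly and passed for none of the 29 members with or without C3, nor for any gene (0% higher and 0% lower in both fits). An unadjusted p under 0.05 was reached by Npc1 and Insig2, both smaller in the labelled knockout.

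Between the genotype labels after cerulein, 5 of 29 members had libraries that did not overlap: Npc1, Insig2, Sqle and Fdps were lower in all 3 labelled knockout libraries and Abcg1 was higher. The share of all genes that lay apart in this way was not counted. The gap was narrow for Sqle, 15.67 CPM (L4) against 15.75 CPM (N3), and for Fdps, 0.944 CPM (C2) against 1.026 CPM (N3). An unadjusted p under 0.05 was reached by Npc1, Insig2 and Abcg1. The difference was -0.73 ± 0.38 for Sqle (unadjusted p = 0.0773, adjusted p = 0.622) and -0.35 ± 0.34 for Fdps (unadjusted p = 0.332, adjusted p = 0.731). Npc1 was at 13.1 CPM in C2, 6.47 in C3 and 12.9 in L4, all below the 22.5 CPM of the lowest wild-type cerulein library, while saline levels overlapped at 5.94 (S1), 9.31 (K4) and 6.26 CPM (Q1). Labelled knockout against wild type after cerulein gave a log2 fold change of -1.75 ± 0.34 (unadjusted p = 0.000305), which did not pass after adjustment over all genes by edgeR (adjusted p = 0.604). Without C3 it was -1.48 ± 0.31 (unadjusted p = 0.000691, adjusted p = 0.818). By DESeq2 the difference passed, with an adjusted p of 0.00378 with C3 and 0.00774 without, and by limma-voom it did not (0.716 and 0.411). Over all alternatives run for this value the adjusted p ran from 0.00378 to 0.854. DESeq2 called 4 of 12898 genes lower with C3 (0.031%) and 10 of 9009 without it (0.111%), while edgeR called 0% of all genes higher and 0% lower in both fits. The difference of the cerulein responses for Npc1 was -1.75 ± 0.47 (unadjusted p = 0.00351, adjusted p = 0.812), and -1.49 ± 0.41 without C3 (unadjusted p = 0.00448, adjusted p = 0.999). Duct marker RNA was also lower in C2 and L4 than in the wild-type cerulein libraries, and its part in the Npc1 difference was not tested. Within the labelled knockout, C2 and L4 were both above the saline libraries in Npc1. That change was 0.86 ± 0.30 without C3 and missed the threshold (adjusted p = 0.0541) by edgeR. With C3 left out it passed by DESeq2 (0.0451), with no filter on low counts (0.029) and with N3 and K4 left out too (1.04 ± 0.20, 0.00427). It missed the threshold by limma-voom without C3 (adjusted p = 0.0609). With L4 left out along with C3, which leaves C2 alone in the cerulein arm, the Npc1 change was 0.87.

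Insig2 showed no such rise in the labelled knockout. It was at 15.5 (S1), 11.1 (K4) and 14.5 CPM (Q1) with saline and at 15.6 (C2), 18.2 (C3) and 14.6 CPM (L4) in cerulein, and its change there was 0.24 ± 0.20 (adjusted p = 0.472), or 0.14 ± 0.22 without C3 (0.65). After cerulein all 3 labelled knockout libraries were below the 20.6 CPM of the lowest wild-type library, a difference of -0.72 ± 0.20 (unadjusted p = 0.00454, adjusted p = 0.604), or -0.81 ± 0.22 without C3 (unadjusted p = 0.00386, adjusted p = 0.891). The responses differed by -0.69 ± 0.29 (unadjusted p = 0.0345, adjusted p = 0.812). Abcg1 had higher values in the labelled knockout after cerulein (0.85 ± 0.31, unadjusted p = 0.0201, adjusted p = 0.604), with C3 the highest of all 12 libraries. Without C3 that difference was 0.34 ± 0.20 (unadjusted p = 0.122, adjusted p = 0.984). The other members, the SREBP genes and the called synthesis enzymes included, had unadjusted p above 0.05 in this comparison with C3, and without it Dhcr7 also fell under 0.05 (0.62 ± 0.21, unadjusted p = 0.0143, adjusted p = 0.958). In saline the labelled knockout and wild type differed in 0 of 29 members, where 0% of all genes rose and 0% fell with C3 and without it, and no member had an unadjusted p under 0.05.

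**Figure D3:**
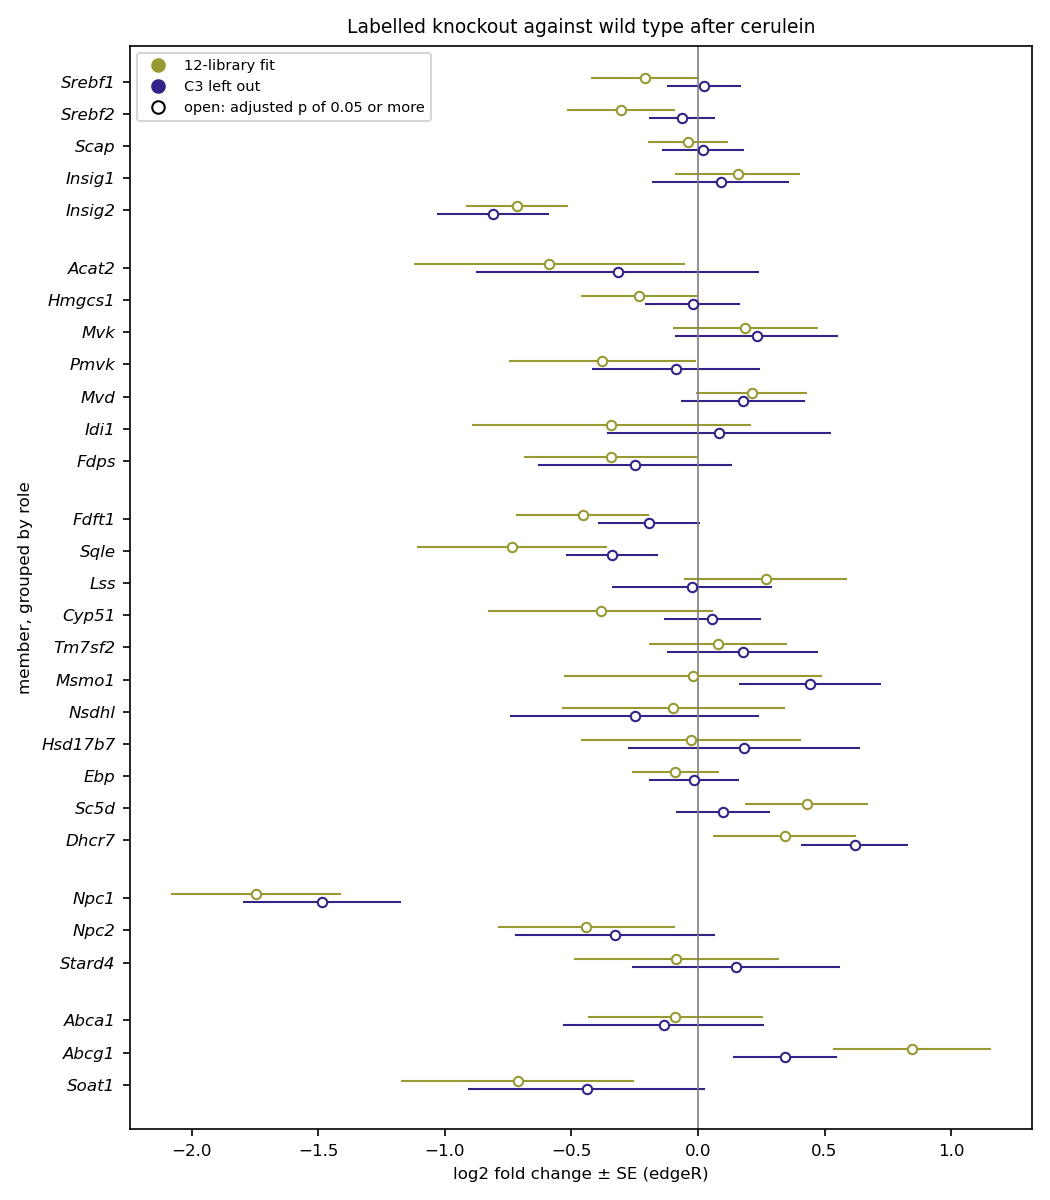
Log2 fold change of labelled knockout against wild type after cerulein (horizontal axis) for the 29 members, with bars of 1 SE, from the fit of 12 libraries and with C3 left out. No point passed by edgeR (all open); Npc1 lies at -1.75 and -1.48, Insig2 at -0.72 and -0.81.

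Around the 29 members, 55 other genes of sterol and fatty acid metabolism were followed in 7 lists. In wild type 7 rose, 10 fell and 38 did not pass, where 17.9% of all genes rose and 12.8% fell. Without C3 the numbers were 8, 11 and 36, with 21.3% and 16.6% over all genes. These shares of the 55 genes lie near those of all genes. Of 9 genes in branches that use mevalonate products, 2 rose and none fell: Pdss1, for the tail of coenzyme Q (1.20 ± 0.34, adjusted p = 0.0235), and Fntb, a farnesyltransferase subunit (0.83 ± 0.25, adjusted p = 0.0271).

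Of 12 fatty acid synthesis genes, none rose and 2 fell, the desaturase genes Fads2 (-1.26 ± 0.29, adjusted p = 0.0114) and Fads1 (-0.83 ± 0.18, adjusted p = 0.0105). None of 7 genes of lipoprotein receptors and uptake passed, and the most abundant, Lrp1, was at 36.9 to 61.0 CPM in saline and 22.9 to 87.9 CPM in cerulein (0.00 ± 0.46, adjusted p = 0.998), with N3 the highest. Of 12 genes for sterol transport inside the cell, 2 rose, among them Osbpl5 (1.31 ± 0.29, adjusted p = 0.0111), and 2 fell, among them Gramd1b, which draws cholesterol from the plasma membrane to the endoplasmic reticulum (-1.51 ± 0.26, adjusted p = 0.00918).

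All 5 genes of the list of LXR and its transporters fell in wild type, where 12.8% of all genes fell. The list also holds Lpcat3, which is not a transporter. The receptor genes Nr1h3 (-0.71 ± 0.21, adjusted p = 0.0251) and Nr1h2 (-0.57 ± 0.18, adjusted p = 0.0362) were among them. Of the exporters among the 29 members, Abcg1 fell, a call lost in 10 alternatives, and Abca1 did not pass (-0.35, adjusted p = 0.470). Abcg8, a subunit of the paired exporter of sterols, was at 1.94 (W1), 5.81 (K5) and 4.14 CPM (R3) in saline and at 0.258 (O1), 0.339 (O3) and 0.460 CPM (N3) in cerulein (-3.47 ± 0.81, adjusted p = 0.0124). Its partner Abcg5 changed by -3.48 ± 0.89 (adjusted p = 0.0163), on counts of only 3 (O1), 5 (O3) and 4 (N3) in cerulein. Of 4 genes for ester storage and hydrolysis, 1 rose: Soat2, the second esterifying enzyme, was at 0.323 (W1), 1.64 (K5) and 2.21 CPM (R3) in saline and at 17.6 (O1), 13.8 (O3) and 6.83 CPM (N3) in cerulein (3.15 ± 1.08, adjusted p = 0.0473). In the labelled knockout it reached 51.7 (C2) and 30.4 CPM (L4) and stayed at 0.750 CPM in C3. Of 6 oxysterol and bile acid enzymes, 2 rose and 1 fell. Ch25h, which makes an oxysterol, changed by 3.09 ± 0.95 (adjusted p = 0.0313) and Hsd3b7 by 1.88 ± 0.54 (adjusted p = 0.025).

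**Figure D4:**
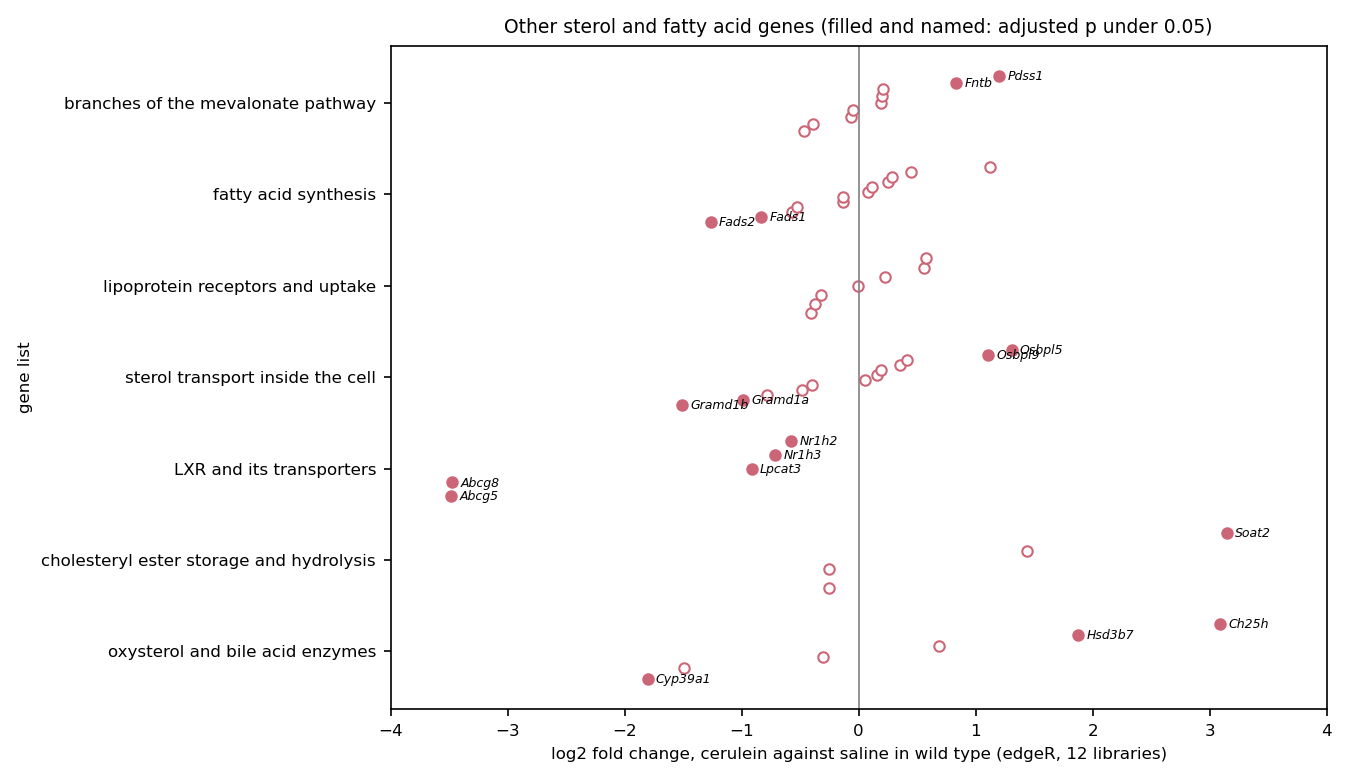
Log2 fold change of cerulein against saline in wild type (horizontal axis, fit of 12 libraries) for 55 other genes in 7 lists; each point is a gene, and filled, named points passed an adjusted p of 0.05. The 5 genes of the LXR list lie below 0, with Abcg5 and Abcg8 near -3.5.

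In the labelled knockout 0 of the 55 passed with C3 and 16 did without it, where 18.7% of all genes rose and 10.5% fell, a like share. Without C3 the changes of Soat2 (4.80 ± 0.61, adjusted p = 0.000411), Osbpl5 (1.37 ± 0.20, 0.000652), Abcg8 (-3.13 ± 0.51, 0.00117) and Gramd1b (-0.996 ± 0.21, 0.0052) had the sign of wild type. Fads2 (-0.04 ± 0.31, adjusted p = 0.929) did not pass there. None of the 55 passed between genotype labels in saline or after cerulein, or in the difference of the responses, with C3 or without it.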

How the data were processed

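Whole pancreas RNA was measured in 12 libraries from 12 animals in 4 groups of 3, as the labels give them. The authors deposited raw counts of reads for each Ensembl gene, as whole numbers. The library kit keeps strand, per the labels' protocols, and HTSeq, DESeq2 and mm10 are named in the submitters' processing notes with neither versions nor roles. The aligner, annotation release and strand setting were not given in the sources used here. Of 49585 genes, 49326 matched GENCODE M21 (GRCm38) for symbols and exons. Totals ran from 18292997 to 32158629 counts, and no 2 libraries were identical.

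Genes kept by edgeR's filterByExpr (14329, or 14733 without C3) were fitted, after TMM scaling, in a single robust quasi-likelihood model that has 1 mean per group (common biological coefficient of variation 0.357, or 0.304 without C3). The 5 comparisons used two-sided F tests, adjusted by Benjamini-Hochberg across every tested gene, and a call needs an adjusted p under 0.05. Standard errors are log2 fold changes divided by the root of F. CPM use TMM-scaled library sizes. R 4.3.3, edgeR 4.0.16, limma 3.58.1, DESeq2 1.42.0, Python 3.11.15, pandas 2.3.3, NumPy 2.4.6 and matplotlib 3.10.9 were used, and the fit was tested on simulated data. Alternatives were another scaling, filter or test, fits of only the groups compared, and libraries left out.

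The 29 members, the lists and the tests were chosen with earlier results of these data known. All members are named. From each other list, up to 2 genes past the threshold with the largest wild-type change are named, or the most abundant where none passed. Nr1h2, Nr1h3 and Lpcat3 were named after their values were seen. Sets without N3, K4 or L4 along with C3 were chosen after seeing the data. Of the lists of other genes, 1 is not reported here.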

Additional observations from a re-analysis of the deposited data

How the results depend on the processing

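Of 3430 values of single members under 12 alternatives and 12 fits that leave out 1 library, 3309 kept their side of the threshold. A call was lost by 37 and gained by 84, and 0 values with a call in either fit changed sign. Values without a call in both fits are among the 3309 whether or not their sign changed. The 9 members higher in wild type ranged from 6 to 9 over fits that leave out 1 library. The count was 6 without K5, R3, O1 or O3 and 7 without W1. The 2 lower in wild type became 0 with no filter on low counts, 0 to 4 with 1 library left out (0 without W1, R3, O1 or O3, 1 without K5, K4 or Q1, 4 without C3), and 4 without C3 by DESeq2, without C3, N3 and K4, and without C3 and L4. The calls lost most often were those of Abcg1 (10 alternatives), Srebf1 (8), Ebp (7), Msmo1 (7) and Cyp51 (5).

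In the labelled knockout the 0 higher members became 2 by DESeq2 and 0 to 8 with 1 library left out (8 without C3). Without C3 they were 9 by DESeq2, 8 by limma-voom and 9 with no filter on low counts, 9 without N3 and K4 too, and 7 without L4 too. The 0 lower members became 1 by DESeq2 and 0 to 3 with 1 library left out (3 without C3). Without C3 they were 3 by DESeq2, 3 by limma-voom and 2 with no filter, 2 without N3 and K4 too, and 0 without L4 too. After cerulein the 0 lower members became 1 (Npc1) by DESeq2, with C3 and without it. The cause of these shifts was not tested. The share of all genes called was counted only for the main edgeR fit, with C3 and without it, and for genes lower by DESeq2 after cerulein. The counts of the other alternatives in this section describe the members only. In saline and in the difference of the responses the count of members called was 0 under every alternative run. Another scaling moved the median wild-type change of all genes from 0.05 to -0.03 at most and turned the sign of 0 members. No paired analysis was possible because the groups have no replicate code in common. Members below 2 CPM are limited by depth.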
